A study of Mus musculus with 10 samples.

Results

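Genes for the enzymes that write and erase chemical marks on histones and DNA were followed in RNA-seq counts from 10 lines of mouse esophageal squamous cell carcinoma (ESCC), a cancer of the squamous lining of the esophagus. The genes were taken by symbol family: lysine methyltransferases (Kmt, Setd, Setdb, Suv39h, Ehmt and Ezh genes), arginine methyltransferases (Prmt), lysine acetyltransferases (Kat), DNA methyltransferases (Dnmt), lysine demethylases (Kdm), zinc-dependent deacetylases (Hdac), sirtuins (Sirt) and the DNA dioxygenases (Tet). This gave 78 of 12806 genes, 43 writers and 35 erasers. The writers were 24 lysine methyltransferase, 7 arginine methyltransferase, 8 lysine acetyltransferase and 4 DNA methyltransferase genes. The erasers were 16 lysine demethylase, 10 zinc-dependent deacetylase, 7 sirtuin and 2 DNA dioxygenase genes. The name families themselves use no measured level, but they were proposed with earlier results of these data known.

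Writers add methyl or acetyl groups and erasers remove them. Acetylation of histone tails and methylation of lysine 4 of histone H3 go with active genes, while methylation of H3 lysines 9 and 27 and of cytosine in DNA goes with silent ones. Several of these enzymes also act on proteins other than histones: Sirt1 deacetylates p53 itself, and Sirt3 works in the mitochondrion. Setd3, Setd4, Setd5, Setd6, Kmt2e and Dnmt3l are kept with the enzymes they resemble, although their own activity on histones or DNA is doubtful or absent.

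All 10 lines carry the genotype Trp53R172H/-, a missense mutant allele of the p53 gene without a wild-type copy, on a mixed strain background. The R172H protein is the mouse counterpart of a common p53 hotspot mutant of human tumours. Each line carried a control short hairpin RNA (shCtrl) or one against Trp53 (shTrp53). Each hairpin had 1 primary line. The remaining 8 were lung metastasis lines from week 8, sorted for the fluorescent protein YFP after culture: 5 shCtrl lines, numbered 376, 377, 378, 382 and 383, and 3 shTrp53 lines, numbered 384, 386 and 387. The labels give neither the promoter or Cre that drives YFP or the mutant allele, nor the host animals, their ages, or whether each line came from its own mouse, so p-values measure the spread between lines, which may in part be technical.

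Total counts ran from 11057049 to 18431216 a library, of which the 78 genes held 0.373 to 0.475%. Trp53 stood at 94.5 to 131 CPM (a gene's counts relative to the scaled size of its library) in shCtrl metastases and 5.16 to 7.36 CPM in shTrp53 metastases, with 73.7 and 6.54 CPM in the shCtrl and shTrp53 primary lines. Squamous basal markers (7 of 7 measured) summed to 8649 to 12606 CPM in the shCtrl and 5833 to 8853 CPM in the shTrp53 metastatic lines. Between these groups edgeR called 1 of the 7 lower, Krt5, and 0 higher. Krt5 went from a mean of 915 to 279 CPM (log2 fold change -1.71, SE 0.38, edgeR adjusted p = 0.0139). Of other cell types, 3 of 6 fibroblast markers were measured and summed to at most 10.9 CPM, 1 of 5 endothelial markers was measured and stayed below 1 CPM, 1 of 6 leukocyte markers, Cd68, stood at 75.0 to 143 CPM, and 0 of 7 lung epithelial markers were among the genes analysed here. The 4 epithelial markers summed to 707 to 952 CPM in the shCtrl and 1572 to 2414 CPM in the shTrp53 metastatic lines, where Cdh1, Krt8 and Krt18 rose and Epcam was not called (edgeR adjusted p = 0.449). Of 26 proliferation genes, edgeR called 20 lower and 0 higher there, and 9 lower once lines 376 to 378 had their own term. Their median log2 level, relative to the mean of all 10 lines, was 0.66 in the shCtrl and 0.44 in the shTrp53 primary line and 0.38 to 0.58 in shCtrl metastatic lines 376 to 378. It was -0.11 in line 382, -0.23 in line 383 and between -0.97 and -0.57 in the 3 shTrp53 metastatic lines. Among the metastatic lines, shCtrl lines 382 and 383 thus lay between shCtrl lines 376 to 378 and the shTrp53 lines. The part of proliferation in the results below was not tested. In bulk RNA, fewer cells of a type and less RNA per cell cannot be told apart.

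The Y chromosome set the primary and metastatic lines apart. Uty, a Y-linked relative of the H3K27 demethylase gene Kdm6a, stood at 4.99 and 4.85 CPM in the shCtrl and shTrp53 primary lines and had 0 counts in all 8 metastatic lines. Against a floor of 3 counts over the 8 lines, Uty was at least 183-fold lower there. The Y-linked genes Ddx3y and Eif2s3y, looked at after Uty's values were seen, had 1 and 0 counts in the 8 metastatic lines against 10.0 to 21.0 and 13.1 to 25.6 CPM in the primary pair. Uty is not one of the 78 genes, and no cause for this was tested.

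Levels compared per kilobase of the longest coding transcript were spread widely. Prmt1, the main enzyme of asymmetric arginine dimethylation, was highest, with a mean over the 10 lines of 270 CPM per kb. It was followed by Hdac2, a class I deacetylase, at 103 CPM per kb, and Kmt5a, which monomethylates lysine 20 of histone H4, at 85.6 CPM per kb. Prmt3, Hdac3, Prmt7 and Prmt5 followed at 64.7, 63.6, 51.0 and 45.1 CPM per kb. Kdm4d was lowest at 0.142 CPM per kb, and 13 of the 78 genes had at most 1 CPM per kb. Kmt5a was also the most even of the 78 genes, with a coefficient of variation of 5.16% over the 10 lines and a range of 215 to 255 CPM. Dnmt3l varied most, at 114%, but reached only 1.78 CPM and had 0 counts in the shCtrl primary line. Over the genes tested in the metastatic lines, the median coefficient of variation was 23.4% for the members and 26.8% for all genes.

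The comparison of shTrp53 (n = 3) with shCtrl (n = 5) metastatic lines asked what lowering mutant p53 changes within lung metastases. Counts of 12120 genes were tested with edgeR's quasi-likelihood test, and a call is a Benjamini-Hochberg adjusted p under 0.05 over all of them. Of the 77 enzyme genes tested, 4 rose and 7 fell, or 14.3%. The background over all genes was 21.7% called, 10.9% higher and 10.8% lower, so the enzyme genes were called no more often than genes at large. Kdm4d, at 0.0842 to 0.789 CPM, was below the low-count filter. The risen genes were the deacetylases Sirt3, Sirt6 and Hdac11 and the methyltransferase Ezh1. Those that fell were the acetyltransferases Kat2a and Kat14, the deacetylases Hdac2, Hdac3 and Sirt1, the DNA methyltransferase Dnmt1 and the arginine methyltransferase Prmt1.

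**Figure D1:**
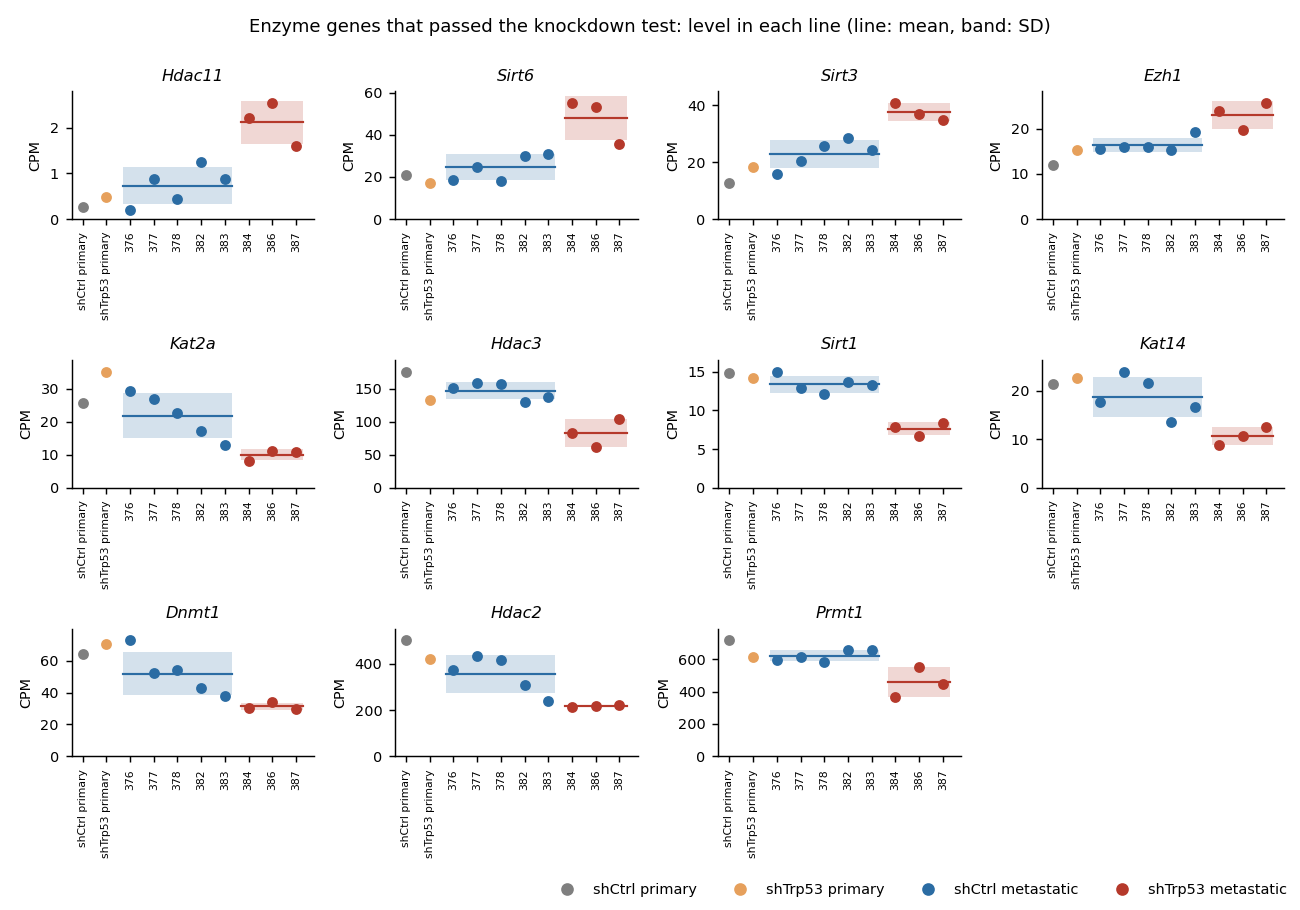
Level in CPM (vertical axes, from 0) of the 11 enzyme genes called between shTrp53 and shCtrl metastatic lines, with 1 point for each of the 10 lines, the mean as a line and the SD as a band for the 2 metastatic groups. In each panel the 3 shTrp53 metastatic lines lie outside the range of the 5 shCtrl metastatic lines, as at 35.8 to 55.1 against 18.0 to 31.1 CPM for Sirt6.

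Within the name families, log2 fold changes below 0 were more frequent among writers than among erasers. Of 43 writers, 1 rose and 4 fell, their median log2 fold change was -0.26, and 29 (67.4%) had a value below 0. Of 34 erasers tested, 3 rose and 3 fell, with a median of 0.06, and 13 (38.2%) were below 0. Over all genes the median was -0.01 and 50.9% were below 0. Writers outside the name families, such as Ep300 and Crebbp, had a median of 0.06 (14 genes, 0 higher and 1 lower). Erasers outside them had a median of 0.24 (4 genes tested, 0 higher and 0 lower). The difference between writers and erasers was not tested, since the genes are not replicates. Per line, the median log2 level of writers minus that of erasers, each relative to the mean of the 10 lines, was 0.26, 0.06, 0.07, -0.14 and -0.05 in shCtrl lines 376, 377, 378, 382 and 383 and -0.21, -0.04 and -0.15 in shTrp53 lines 384, 386 and 387. The shTrp53 lines overlapped shCtrl lines 382 and 383 on this scale. With a term for line numbers 376 to 378 the writers' median was -0.13 and the erasers' median turned to -0.05, and against shCtrl lines 382 and 383 alone they were again -0.13 and -0.05. Both fits take the difference from shCtrl lines 382 and 383, so they are not separate checks. The gap between writers and erasers was much smaller against these lines.

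Of the 77 genes, 21 had shTrp53 and shCtrl ranges that did not overlap, 6 higher and 15 lower, or 27.3% against 29.4% of all genes (14.6% higher and 14.8% lower). Among writers 1 was higher and 9 lower, and among erasers 5 were higher and 6 lower. By role, the medians of DNA methyltransferases (-0.68, 4 genes), zinc-dependent deacetylases (-0.46, 10 genes), arginine methyltransferases (-0.30, 7 genes), acetyltransferases (-0.24, 8 genes) and lysine methyltransferases (-0.20, 24 genes) were below 0. Those of demethylases (0.03, 15 genes tested), DNA dioxygenases (0.06, 2 genes) and sirtuins (0.39, 7 genes) were above it. Of the 15 demethylases, 0 were called by edgeR, with 2 at an unadjusted p under 0.05, 0 by DESeq2 and 1, higher, by limma voom.

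**Figure D2:**
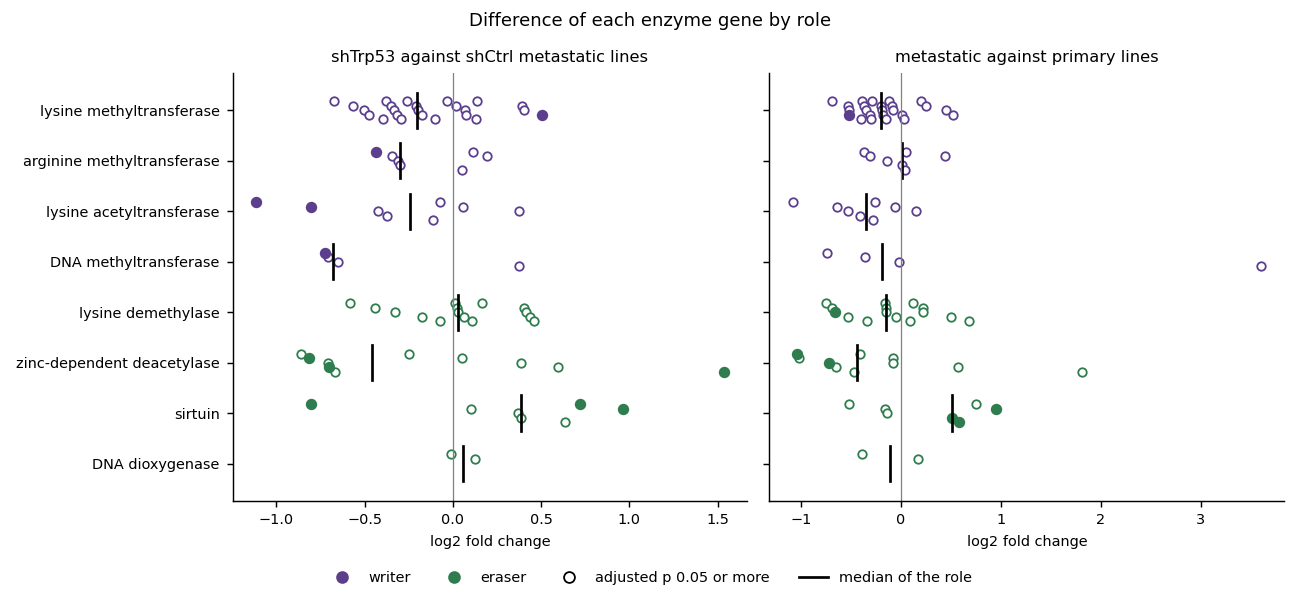
Log2 fold change (horizontal axes) of every enzyme gene tested, by role, between shTrp53 and shCtrl metastatic lines (left) and between metastatic and primary lines (right). Filled points have an adjusted p under 0.05 and black bars are role medians; sirtuins have the highest median in both panels, 0.39 and 0.51.

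Sirtuins are NAD-dependent deacylases and moved in both directions. Sirt6, a nuclear sirtuin that deacetylates histone H3, was at 18.8, 24.9, 18.0, 30.1 and 31.1 CPM in shCtrl lines 376, 377, 378, 382 and 383 and at 55.1, 53.0 and 35.8 CPM in shTrp53 lines 384, 386 and 387. All 3 shTrp53 lines lay above the 5 shCtrl lines, with line 387 the closest to them. Sirt6 rose from 24.6 ± 6.11 (SD, n = 5) to 48.0 ± 10.6 CPM (SD, n = 3), a log2 fold change of 0.97 (SE 0.22, edgeR adjusted p = 0.0139). Sirt3, the main mitochondrial deacetylase, was at 15.8, 20.5, 25.5, 28.3 and 24.1 CPM in the shCtrl lines, in the same order, and at 40.7, 37.0 and 34.7 CPM in the shTrp53 lines. Sirt3 was lowest in line 376, and every shTrp53 line was above every shCtrl line. Its log2 fold change was 0.72 (SE 0.18, edgeR adjusted p = 0.0215), from 22.8 ± 4.85 (SD, n = 5) to 37.5 ± 3.05 CPM (SD, n = 3). The Sirt6 call was lost without line 384 or 386 (highest edgeR adjusted p = 0.0602, without 384). The Sirt3 call was lost without line 377, 384 or 386 (highest edgeR adjusted p = 0.0818, without 384).

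Sirt1, a nuclear deacetylase of histones and of p53, went the other way. It was at 15.0, 12.9, 12.1, 13.7 and 13.3 CPM in shCtrl lines 376, 377, 378, 382 and 383 and at 7.82, 6.70 and 8.38 CPM in the shTrp53 lines. The shCtrl lines were close together and did not follow line number, and all 3 shTrp53 lines lay below them. Sirt1 fell by 0.80 on the log2 scale (SE 0.18, edgeR adjusted p = 0.0118), from 13.4 ± 1.09 (SD, n = 5) to 7.63 ± 0.853 CPM (SD, n = 3). In the primary pair Sirt1 stood at 14.8 and 14.2 CPM with shCtrl and shTrp53. The call was kept whichever line was left out (highest edgeR adjusted p = 0.0494, without 386). It was also kept when a term set lines 376 to 378 apart (edgeR adjusted p = 0.0440).

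The other 4 sirtuins were not called. Sirt2, a mostly cytoplasmic deacetylase, was at 54.5 to 72.8 CPM in the shCtrl and 84.8 to 91.6 CPM in the shTrp53 metastatic lines, without overlap (log2 fold change 0.39, SE 0.13, edgeR adjusted p = 0.0506). Sirt4 and Sirt5, both mitochondrial, had log2 fold changes of 0.63 and 0.37, and Sirt7, a nucleolar sirtuin, of 0.11, with overlapping ranges. Summed per kb, the 7 sirtuins stood at 110, 120, 119, 126 and 127 CPM in the shCtrl lines and 172, 164 and 142 CPM in the shTrp53 lines, and at 97.0 and 97.2 CPM in the primary pair.

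**Figure D3:**
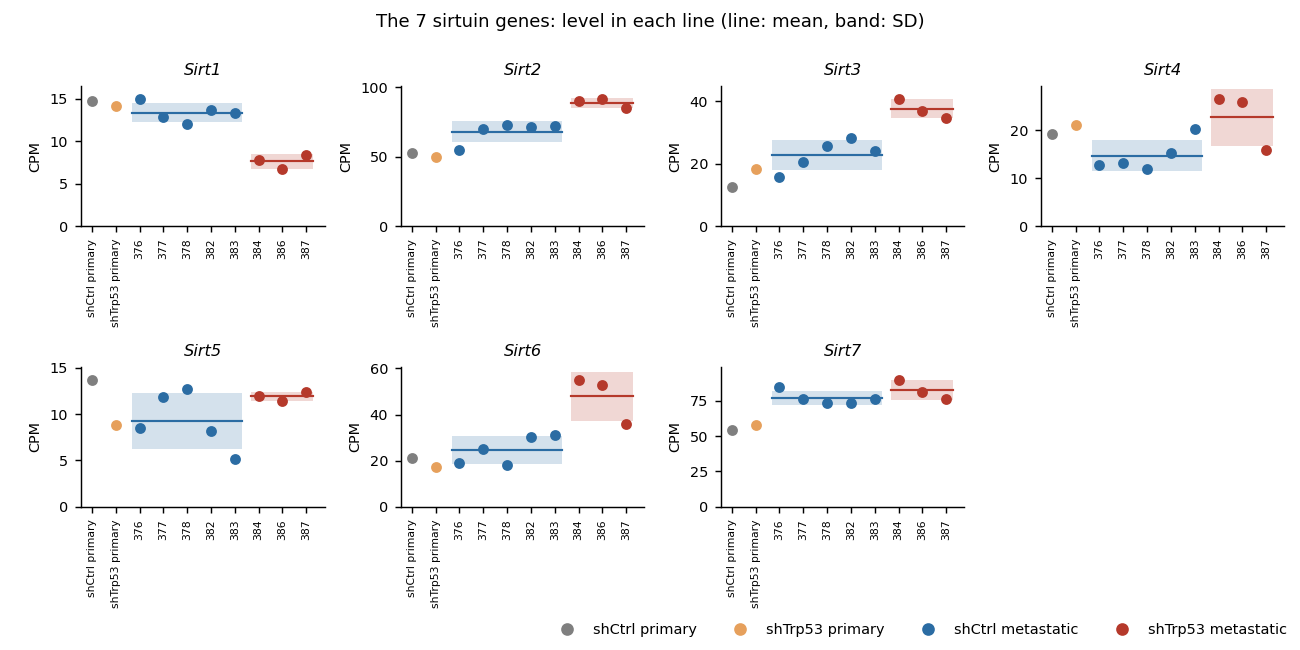
Level in CPM (vertical axes, from 0) of the 7 sirtuin genes in each of the 10 lines, with the mean as a line and the SD as a band for the 2 metastatic groups. Sirt3 and Sirt6 are higher and Sirt1 is lower in the 3 shTrp53 metastatic lines than in any shCtrl metastatic line, while Sirt4, Sirt5 and Sirt7 overlap.

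Promoters of the called genes were read as windows of 300 bases around RefSeq transcript starts in GRCm38.p6, from 250 bases before to 50 after, because Sirt3 and Sirt6 rose together. The ETS core CCGGAAG, searched on both strands, was in a window of 2 of the 4 risen genes, Sirt3 and Sirt6, in 0 of the 6 fallen genes that had a window, and in 13 of the 66 enzyme genes with one. It was in 18% of the 12163 windows of tested genes and in 8.86% of all 32851 windows. The 66 enzyme genes had 91 windows, so counts of genes and shares of windows are not alike. Sirt3 and Sirt6 each had another window without the ETS core (chr7:140881820-140882119 and chr10:81627273-81627572). The windows that hold it follow, for Sirt3 (chr7:140882260-140882559, minus strand) and Sirt6 (chr10:81627517-81627816, minus strand). Capitals mark the ETS core, here on the opposite strand, and in Sirt6 also the palindromic NRF1 core CGCATGCG.
Sirt3: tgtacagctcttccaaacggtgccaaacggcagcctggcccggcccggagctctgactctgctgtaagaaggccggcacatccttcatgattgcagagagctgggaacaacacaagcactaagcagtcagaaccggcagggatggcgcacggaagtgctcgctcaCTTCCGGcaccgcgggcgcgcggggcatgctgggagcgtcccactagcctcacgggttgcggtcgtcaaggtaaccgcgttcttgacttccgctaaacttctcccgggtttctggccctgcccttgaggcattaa
Sirt6: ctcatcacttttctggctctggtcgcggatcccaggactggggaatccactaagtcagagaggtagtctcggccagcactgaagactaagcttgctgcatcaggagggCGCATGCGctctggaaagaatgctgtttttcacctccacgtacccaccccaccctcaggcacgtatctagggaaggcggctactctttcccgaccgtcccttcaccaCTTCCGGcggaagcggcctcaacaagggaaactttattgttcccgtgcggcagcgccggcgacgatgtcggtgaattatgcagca
The NRF1 core was in 3.87% of the windows of tested genes and in 3 enzyme genes, among them Sirt6, which rose, and Dnmt1, which fell. A match is a description of letters and not a binding site, and the windows come from another build than the counts.

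Among zinc-dependent deacetylases, the class I genes Hdac2 and Hdac3 fell. Hdac3, the catalytic subunit of nuclear corepressor complexes, was at 151, 159, 157, 130 and 137 CPM in shCtrl lines 376, 377, 378, 382 and 383 and at 83.5, 61.6 and 104 CPM in shTrp53 lines 384, 386 and 387. Every shTrp53 line was below every shCtrl line. Hdac3 fell from 147 ± 12.9 (SD, n = 5) to 83.1 ± 21.4 CPM (SD, n = 3), by 0.81 on the log2 scale (SE 0.17, edgeR adjusted p = 0.00935). Like Sirt1, it was called whichever line was left out (highest edgeR adjusted p = 0.0406, without 384), and with the line term too (edgeR adjusted p = 0.0491). Hdac2, a catalytic subunit of the Sin3, NuRD and CoREST complexes, was at 376, 436, 418, 310 and 239 CPM in the shCtrl lines and at 214, 220 and 221 CPM in the shTrp53 lines. Line 383 lay close to the shTrp53 lines. Hdac2 fell by 0.70 (SE 0.18, edgeR adjusted p = 0.0236), from 356 ± 81.3 (SD, n = 5) to 218 ± 4.02 CPM (SD, n = 3). With the line term the Hdac2 difference was -0.32 (edgeR adjusted p = 0.163), and its call was lost without line 377, 378, 384, 386 or 387 (highest edgeR adjusted p = 0.0833, without 384). Hdac1, its close partner, was at 68.7 to 82.6 CPM in the shCtrl and 60.3 to 68.5 CPM in the shTrp53 lines, not overlapping but not called (log2 fold change -0.25, SE 0.12, edgeR adjusted p = 0.146).

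Hdac11, the only class IV deacetylase, was the risen gene with the largest fold and the lowest level. It was at 0.210, 0.868, 0.446, 1.26 and 0.889 CPM in the shCtrl and 2.22, 2.54 and 1.61 CPM in the shTrp53 metastatic lines, a log2 fold change of 1.54 (SE 0.48, edgeR adjusted p = 0.0424). Its call was lost without line 377, 378, 384, 386 or 387 (highest edgeR adjusted p = 0.127, without 386). Hdac4, a class IIa deacetylase, ranged from 108 CPM in line 376 to 352 CPM in line 382 and stood at 350 to 395 CPM in the shTrp53 lines (log2 fold change 0.60, SE 0.29, edgeR adjusted p = 0.156). Hdac10, which acts on polyamines, was at 6.65 to 14.1 CPM in the shCtrl and 4.82 to 6.53 CPM in the shTrp53 lines (-0.86, SE 0.29, edgeR adjusted p = 0.0546).

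Acetyltransferases gave 2 falls and 0 rises of 8. Kat2a (GCN5), the acetyltransferase of the SAGA and ATAC complexes, was at 29.4, 27.0, 22.8, 17.2 and 12.9 CPM in shCtrl lines 376, 377, 378, 382 and 383 and at 8.10, 11.1 and 10.9 CPM in the shTrp53 lines. The shCtrl lines declined with line number and the shTrp53 lines lay below all of them. Kat2a fell by 1.12 on the log2 scale (SE 0.27, edgeR adjusted p = 0.0177), from 21.8 ± 6.83 (SD, n = 5) to 10.0 ± 1.68 CPM (SD, n = 3). Kat14, another subunit of the ATAC complex, was at 17.6, 23.9, 21.6, 13.6 and 16.7 CPM in the shCtrl and 8.75, 10.7 and 12.5 CPM in the shTrp53 lines. It fell by 0.80 (SE 0.22, edgeR adjusted p = 0.0262). The Kat2a call was lost without line 384 or 386 (highest edgeR adjusted p = 0.0764, without 384), and that of Kat14 without line 377, 378, 384 or 386 (highest edgeR adjusted p = 0.106, without 384). With lines 376 to 378 given their own term, the Kat2a difference shrank to -0.57 (edgeR adjusted p = 0.131) and that of Kat14 to -0.50 (edgeR adjusted p = 0.190). Kat5 (TIP60), which acetylates H4 and p53, was at 33.8 to 39.6 CPM in the shCtrl and 27.4 to 28.4 CPM in the shTrp53 lines, without overlap and without a call (-0.37, SE 0.13, edgeR adjusted p = 0.0560). Kat7, the most abundant of the 8, did not differ detectably (-0.11, SE 0.13, edgeR adjusted p = 0.554).

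Dnmt1, which copies cytosine methylation onto newly made DNA, was at 72.6, 52.0, 53.9, 43.0 and 37.8 CPM in shCtrl lines 376, 377, 378, 382 and 383 and at 30.2, 33.8 and 29.9 CPM in the shTrp53 lines. The highest shTrp53 value, in line 386, was close to that of shCtrl line 383. Proliferation genes ran in a similar order over the 5 shCtrl lines. Among the shTrp53 lines their median was lowest in line 386 (-0.97), where Dnmt1 was highest. Dnmt1 fell by 0.72 on the log2 scale (SE 0.20, edgeR adjusted p = 0.0283), from 51.8 ± 13.3 (SD, n = 5) to 31.3 ± 2.19 CPM (SD, n = 3). With that line term the Dnmt1 difference was -0.36 (edgeR adjusted p = 0.214), and the call was lost without line 377, 378, 384, 386 or 387 (highest edgeR adjusted p = 0.0966, without 384). Uhrf1, which brings Dnmt1 to replicating DNA and is not one of the 78 genes, ran 48.5, 36.3, 38.3, 27.5 and 22.2 CPM in the shCtrl and 14.8, 20.3 and 21.4 CPM in the shTrp53 lines (log2 fold change -0.87, SE 0.25, edgeR adjusted p = 0.0319). The Dnmt1 window at chr9:20952574-20952873 (minus strand, GRCm38.p6) is shown because it holds the NRF1 core and the E2F motif TTTGGCGC, both in capitals. The E2F motif was in 0.962% of the windows of tested genes and in 0.514% of all windows. By gene, it was in a window of 2 of the 66 enzyme genes and of 1 of the 6 genes that fell. Besides it and the ETS and NRF1 cores, 3 more motifs were searched on both strands. The E2F motif TTTCCCGC (2.05% of windows of tested genes, 1.07% of all windows) was in 2 enzyme genes and 0 of the 6. The CHR motif TTTGAA (12% and 17.9%) was in 11 and 1, Dnmt1, but in another of its windows (chr9:20959839-20960138). The CHR motif TTCGAA (2.05% and 1.56%) was in 3 and 1, Kat14.
Dnmt1: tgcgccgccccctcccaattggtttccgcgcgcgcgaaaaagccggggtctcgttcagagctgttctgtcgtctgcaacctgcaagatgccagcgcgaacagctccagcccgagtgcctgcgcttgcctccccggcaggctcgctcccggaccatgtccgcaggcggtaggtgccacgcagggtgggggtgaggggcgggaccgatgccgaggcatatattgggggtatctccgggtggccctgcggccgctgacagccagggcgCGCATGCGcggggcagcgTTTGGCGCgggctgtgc
Of the other DNA methyltransferases, the de novo enzymes Dnmt3a and Dnmt3b had log2 fold changes of 0.37 and -0.65 at 4.46 to 8.68 and 0.932 to 2.78 CPM, neither called. Tet2, the more abundant of the dioxygenases that oxidise methylcytosine, was at 22.6 to 38.0 CPM in the shCtrl and 30.0 to 41.9 CPM in the shTrp53 metastatic lines (0.13, SE 0.19, edgeR adjusted p = 0.657).

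Of 24 lysine methyltransferases, edgeR called 1, higher, and 5 had an unadjusted p under 0.05, while 16 had values below 0. limma voom called 1 higher and 2 lower. The gene called by edgeR was Ezh1, the alternative catalytic subunit of Polycomb repressive complex 2 (PRC2). It was at 15.5, 16.0, 15.9, 15.2 and 19.2 CPM in the shCtrl and 24.0, 19.7 and 25.7 CPM in the shTrp53 lines. In level, shTrp53 line 386 was nearly level with shCtrl line 383. Ezh1 rose by a log2 fold change of 0.50 (SE 0.15, edgeR adjusted p = 0.0402), and its call was lost without line 376, 377, 378, 382, 384 or 387 (highest edgeR adjusted p = 0.142, without 387). Ezh2, the PRC2 subunit of dividing cells, was not called (-0.17, SE 0.14, edgeR adjusted p = 0.389), with 84.0 to 120 CPM in the shCtrl and 87.2 to 99.3 CPM in the shTrp53 lines. Setd5 was called with the term for line numbers (log2 fold change -0.54, SE 0.14, edgeR adjusted p = 0.0439) but not without it (edgeR adjusted p = 0.0789).

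Gain-of-function p53 mutants are known to bind the promoters of Kmt2a (MLL1), Kmt2d (MLL2) and Kat6a (MOZ) and raise their expression in human cancer cells, so these genes were read out. They were picked for that background after the table had been read. Kmt2a was at 13.0 to 24.7 CPM in the shCtrl and 16.5 to 23.6 CPM in the shTrp53 metastatic lines (log2 fold change 0.02, SE 0.22, edgeR adjusted p = 0.964). Kmt2d was at 37.3 to 58.1 and 36.9 to 56.2 CPM (-0.03, SE 0.18, edgeR adjusted p = 0.909). Kat6a was at 15.8 to 29.0 and 13.4 to 17.1 CPM, with overlapping ranges (-0.43, SE 0.21, edgeR adjusted p = 0.161). None of these 3 genes was called, and a change the size of the standard errors would not have been detectable. When counts were simulated for this comparison, the test recovered 8 of 60 genes with a true 1.5-fold change, 43 of 71 at 2-fold and 65 of 69 at 4-fold. Only 200 genes were changed there, none of low mean count, while 2634 of 12120 genes were called in the data. The adjusted p depends on how many genes change, so these shares need not hold for the data.

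Prmt1, the most abundant of the 78 genes, was the only arginine methyltransferase called. It was at 597, 612, 583, 654 and 653 CPM in the shCtrl and 369, 553 and 447 CPM in the shTrp53 lines, so all 3 lay lower, line 386 by the least. Prmt1 fell by 0.44 on the log2 scale (SE 0.14, edgeR adjusted p = 0.0475). It kept the call in 1 of the 8 fits that left out a line, that without 386, and its highest edgeR adjusted p was 0.178, without 384. Among demethylases, Kdm5a, which removes H3K4 methylation, was the most abundant, at 121 to 240 CPM in the shCtrl and 189 to 276 CPM in the shTrp53 lines (log2 fold change 0.42, SE 0.21, edgeR adjusted p = 0.176).

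Grouping enzymes by the mark they set gave a writer to eraser balance, the log2 ratio of summed CPM per kb. The grouping was drawn up after the data were seen, and the ratio says nothing of protein or activity. For lysine acetylation, 7 acetyltransferases were set against the 4 class I deacetylases, without the sirtuins. Kat14, which fell, was not among the 7. The balance was -1.99 to -1.54 in the shCtrl and -1.51 to -1.26 in the shTrp53 metastatic lines, without overlap, but with line 383 next to line 387. The summed deacetylases were 183 to 262 CPM per kb in the shCtrl and 140 to 158 CPM per kb in the shTrp53 lines, and the acetyltransferases 62.3 to 68.0 and 55.5 to 60.2 CPM per kb. The non-overlap rests on this choice of erasers, and the balance with Kat14 among the writers was not taken. The 7 sirtuins summed to 110 to 127 CPM per kb in the shCtrl and 142 to 172 CPM per kb in the shTrp53 lines. With them added the balance was -2.54 to -2.30 in the shCtrl and -2.44 to -2.40 in the shTrp53 lines, and with all 10 zinc-dependent deacetylases and the sirtuins it was -2.69 to -2.48 and -2.66 to -2.62, so that the ranges overlapped in both. For DNA methylation the balance was 0.65 to 1.94 in the shCtrl and 0.36 to 0.60 in the shTrp53 lines, again without overlap. Here shCtrl line 383 (0.65) lay next to shTrp53 line 384 (0.60). The DNA methylation writers were mostly Dnmt1, at a mean of 8.31 CPM per kb against 0.671 for Dnmt3a and 0.404 for Dnmt3b. This balance thus largely repeats the Dnmt1 difference given above. For methylation of H3 lysines 4, 9, 27 and 36 the ranges overlapped.

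**Figure D4:**
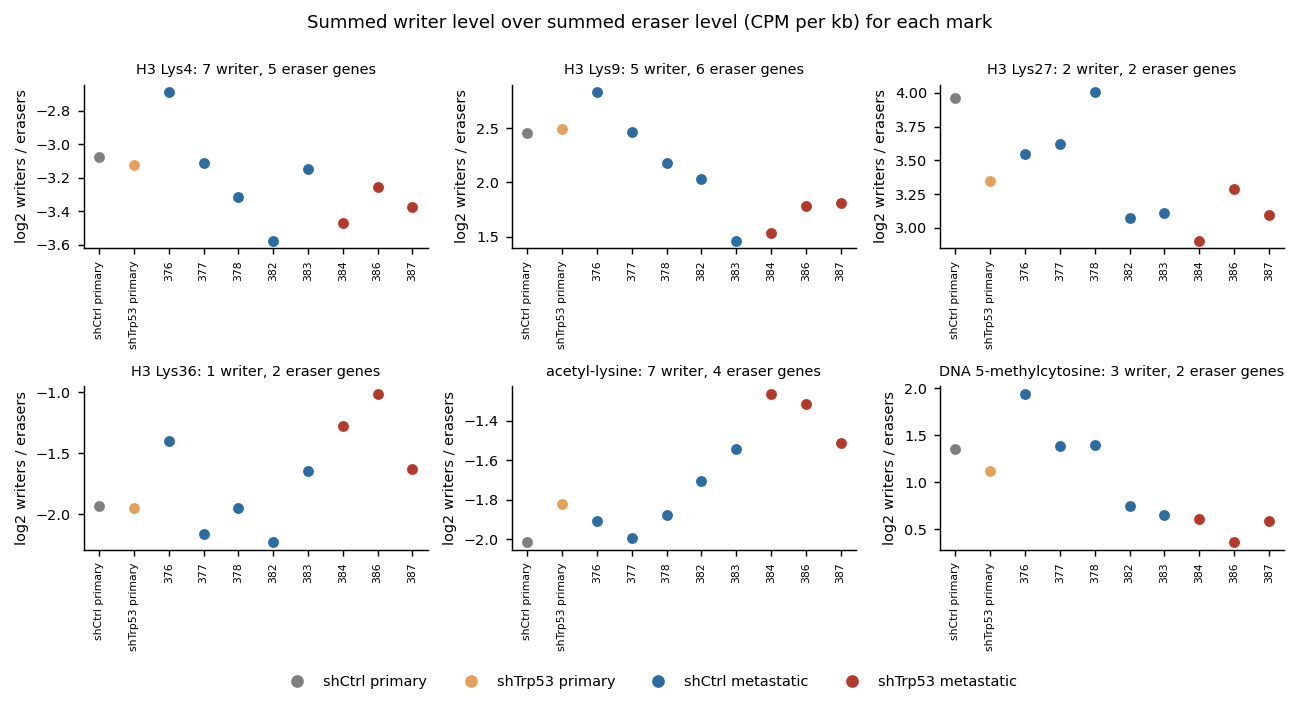
Log2 ratio of summed writer to summed eraser CPM per kb (vertical axis) for 6 marks in the 10 lines, 1 point a line. The shTrp53 metastatic lines lie above the shCtrl metastatic lines for lysine acetylation with only the 4 class I deacetylases as erasers and without Kat14 among the writers (-1.51 to -1.26 against -1.99 to -1.54). With the sirtuins added (-2.44 to -2.40 against -2.54 to -2.30) the ranges overlap. The shTrp53 lines lie below the shCtrl lines for DNA methylation (0.36 to 0.60 against 0.65 to 1.94), where the writers are mostly Dnmt1 and line 383 lies next to line 384. For the 4 H3 methylation marks the ranges overlap.

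The shCtrl lines fell into an earlier block (376, 377 and 378) and a later one (382 and 383), and all shTrp53 lines had higher numbers. The labels give no batch, and knockdown and line number cannot be told apart. With a term for lines 376 to 378, 0 enzyme genes were higher and 3 lower (Hdac3, Sirt1 and Setd5), or 3.90% of 77 against a background of 7.79% (3.44% lower), and 4 and 9 had an unadjusted p under 0.05 in each direction. Against lines 382 and 383 alone, edgeR called 0 of 77 enzyme genes against 5.05% of all genes, and 15 had an unadjusted p under 0.05, 5 higher and 10 lower. Both fits take the knockdown difference from lines 382 and 383 and are not separate checks. All 11 genes called with every line kept their direction in both fits. This was fixed in advance, because in each of them the 3 shTrp53 lines lay outside all 5 shCtrl lines.

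Chromosome-wide shifts also ran between the groups. Sirt1, Hdac2 and Sirt6 lie on chromosome 10, whose 560 tested genes had a median log2 fold change of -0.23, so that Sirt6 moved against its chromosome and Sirt1 and Hdac2 with it. Hdac3 lies on chromosome 18, with a median of -0.12. The largest medians, 0.30 and 0.32, were those of chromosomes 8 and 13, on which no enzyme gene called in this comparison lies. The part of these shifts in single genes was not tested.

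The second comparison set the 8 metastatic lines against the 2 primary lines, with a covariate for the hairpin, and asked how enzyme genes differ by site. It shares the metastatic lines with the first. Of 77 enzyme genes tested, 3 were higher and 4 lower in metastatic lines, or 9.09%, against 14.8% of 12603 genes (7.14% higher and 7.65% lower). The 3 higher genes were all sirtuins, Sirt2, Sirt3 and Sirt7. The lower genes were Hdac2, Hdac10, the H3K4 demethylase Kdm1b and Kmt2e. Median log2 fold changes were -0.20 for writers, -0.15 for erasers and -0.03 for all genes. In 10 enzyme genes, or 13.0%, the ranges did not overlap, against 21.9% of all genes.

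Sirt3 stood at 12.6 and 18.2 CPM in the shCtrl and shTrp53 primary lines and at 28.3 ± 8.58 CPM (SD, n = 8) in the metastatic lines, where shCtrl line 376 (15.8 CPM) was below the shTrp53 primary line. Its log2 fold change was 0.95 (SE 0.22, edgeR adjusted p = 0.0173). Sirt7, which deacetylates H3 at lysine 18, stood at 54.3 and 57.5 CPM in the primary lines and at 73.2 to 89.7 CPM in the metastatic lines, without overlap. Its log2 fold change was 0.51 (SE 0.13, edgeR adjusted p = 0.0244). Sirt2 stood at 52.8 and 50.1 CPM in the primary and at 54.5 to 91.6 CPM in the metastatic lines, with line 376 closest to the primary lines (log2 fold change 0.57, SE 0.16, edgeR adjusted p = 0.0336). Sirt6 was not called by site (log2 fold change 0.75, SE 0.31, edgeR adjusted p = 0.118).

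Kdm1b (LSD2) was at 80.5 and 72.5 CPM in the primary lines and at 36.6 to 63.6 CPM in all metastatic lines, a fall without overlap (log2 fold change -0.67, SE 0.18, edgeR adjusted p = 0.0298). Hdac10 was at 18.1 and 13.1 CPM in the primary lines and at 8.36 ± 3.44 CPM (SD, n = 8) in the metastatic lines (log2 fold change -1.04, SE 0.28, edgeR adjusted p = 0.0312). Hdac2 was at 502 and 420 CPM in the primary lines and 304 ± 94.1 CPM (SD, n = 8) in the metastatic lines, where line 377 reached 436 CPM (-0.72, edgeR adjusted p = 0.0320). Kmt2e, a SET domain protein with doubtful methyltransferase activity, was at 160 and 145 CPM in the primary and 81.2 to 142 CPM in the metastatic lines (-0.52, SE 0.15, edgeR adjusted p = 0.0412). No enzyme gene kept its site call in all 10 fits that left out a line. Without the shTrp53 primary line edgeR called 0 enzyme genes (5 at an unadjusted p under 0.05) and 121 genes in all, with an adjusted p of 0.211 for Sirt3, 0.403 for Sirt2, 0.215 for Sirt7, 0.330 for Hdac10, 0.408 for Hdac2 and 0.411 for Kmt2e. Kdm1b reached its highest adjusted p, 0.196, without the shCtrl primary line. Proliferation genes were also lower in metastatic lines (12 of 26 called) and the primary pair alone had Y-linked transcripts.

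Whether the knockdown difference itself differed between metastatic and primary lines was tested as an interaction. Of 78 enzyme genes edgeR called 0, as of 12754 genes, and the lowest adjusted p of an enzyme gene was 0.505. At an unadjusted p under 0.05 there were 3, against 9.16% of all genes: Kat2a (interaction log2 difference -1.58, SE 0.57), Sirt6 (1.25, SE 0.50) and Hdac6 (-1.65, SE 0.69). DESeq2 also called 0 enzyme genes, and so did limma voom, with 8 at an unadjusted p under 0.05. With 1 primary line of each kind the test had little reach: of genes simulated with a 1.5-fold, 2-fold or 4-fold difference it recovered 0 of 58, 1 of 68 and 27 of 74. That simulation, too, changed 200 genes, none of low mean count.

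In the primary pair itself, with 1 line in each group and no test, 5 of 67 enzyme genes with a mean of at least 5 CPM were past 1.5-fold higher and 1 past 1.5-fold lower in the shTrp53 line. That is 8.96%, against 12.2% of all such genes. Hdac6, a cytoplasmic deacetylase of tubulin, went from 6.86 to 13.6 CPM, a log2 ratio of 0.97 with a 95% exact binomial counting interval of 0.62 to 1.35. Ehmt2 (G9a), which dimethylates H3 lysine 9, went from 9.91 to 19.0 CPM (0.93, interval 0.64 to 1.24), and Kdm6a (UTX), an H3K27 demethylase, had a log2 ratio of 0.76 (interval 0.40 to 1.14). Sirt5, a mitochondrial desuccinylase, went from 13.7 to 8.80 CPM (-0.63, interval -0.98 to -0.29). Hdac10 and Prmt2 had log2 ratios of -0.47 and -0.46. These intervals cover counting error only. Of the 11 genes called in the metastatic lines, 7 differed in the same direction in the primary pair and 4 (Kat2a, Sirt6, Dnmt1 and Kat14) in the opposite one. The same share over all called genes was not taken. Directions of Sirt1, Hdac11, Kat14 and Dnmt1 stayed within counting error (intervals -0.352 to 0.229, -1.172 to 3.172, -0.143 to 0.326 and -0.000 to 0.266). Kat2a went from 25.6 to 35.2 and Sirt6 from 21.0 to 17.2 CPM, and Hdac3, in the same direction as in the metastatic lines, from 176 to 133 CPM.

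Partners of these enzymes, 78 genes from PRC2, COMPASS, corepressor and DNA methylation complexes, other writers and erasers and mark readers, served as a fixed list beside the members. In the metastatic knockdown comparison 73 were tested, 2 rose and 3 fell, with a median log2 fold change of -0.03. Over all genes 21.7% were called, 10.9% higher and 10.8% lower, so partners were called less often than genes at large. Sin3b, a scaffold of Hdac1 and Hdac2, rose from 135 ± 12.1 (SD, n = 5) to 237 ± 18.0 CPM (SD, n = 3), a log2 fold change of 0.82 (SE 0.11, edgeR adjusted p = 0.00209). It lies on chromosome 8, whose genes had the median of 0.30 given above. Brd3, a reader of acetylated histones, rose by 0.45 (SE 0.14, edgeR adjusted p = 0.0421). Trim28, a corepressor that recruits the methyltransferase Setdb1, fell by 0.90 on the log2 scale (SE 0.20, edgeR adjusted p = 0.0118), while Setdb1 was not called (-0.26). Nsd2, which dimethylates H3 lysine 36, fell by 0.60 (SE 0.13, edgeR adjusted p = 0.0114), and Uhrf1 fell as given above. Sin3b was called whichever line was left out (highest edgeR adjusted p = 0.0107, without 384). Calls were lost without line 386 for Nsd2 (edgeR adjusted p = 0.0510), without line 384 for Trim28 (edgeR adjusted p = 0.0507), without 377, 378, 384, 386 or 387 for Uhrf1 (highest edgeR adjusted p = 0.125, without 384) and without any line but 383 for Brd3 (highest edgeR adjusted p = 0.135, without 384). With the term for line numbers 376 to 378, Sin3b (0.71, edgeR adjusted p = 0.0119) and Nsd2 (-0.68, edgeR adjusted p = 0.0200) were called. Trim28 (-0.50, edgeR adjusted p = 0.0573), Uhrf1 (-0.39, edgeR adjusted p = 0.265) and Brd3 (0.33, edgeR adjusted p = 0.207) were not. Of 7 PRC2 partners tested, edgeR called 0 (2 at an unadjusted p under 0.05) and DESeq2 and limma voom 2 and 1. Of 9 COMPASS partners edgeR called 0 (1 at an unadjusted p under 0.05) and the other tools 1 each.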

How the data were processed

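The values deposited by the authors are raw read counts per gene for 10 libraries, judged from whole numbers whose totals differ between columns. Per the labels' protocols, cDNA was made from 1 ng of total RNA with SMART-Seq v4 reagents. Per the submitters' processing notes, STAR 2.5, Cufflinks 2.2.1, DESeq2 and build mm9 were used. What each tool did, the gene annotation and the strandedness of counting were not given in the sources used here, so a gene and an antisense or overlapping neighbour cannot be separated. 18 of 12824 rows held a bare number as a name (0.332 to 0.491% of counts) and were left out.

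The enzyme genes and lists were chosen with earlier results of these data known. 79 genes matched the name pattern and 1 gene matching it is not reported here. Kat14 was placed among acetyltransferases after the table was read. Named genes were those called in either comparison, the most abundant of each role, the 3 largest ratios each way in the primary pair and the called partners; genes such as Hdac1, Hdac4, Ezh2, Sirt2, Kat5, Kmt2a, Kmt2d and Kat6a were added after their values were seen or for background.

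The main test was edgeR 4.0.16 (R 4.3.3) with TMM scaling, filterByExpr, robust glmQLFit and glmQLFTest, at a Benjamini-Hochberg adjusted p under 0.05. The knockdown was fitted in the 8 metastatic lines, the site in 10 lines with the knockdown as covariate, and the interaction in 4 groups. Each SE was taken as the log2 fold change divided by the square root of F. CPM used TMM over 10 libraries and log2 CPM a prior count of 2. GRCm38.p6 gave names, chromosomes, lengths and promoter windows. Alternatives were DESeq2 1.42.0 (test and size factors), limma 3.58.1 voom, upper-quartile scaling, other filters, no robust dispersion, a 1.5-fold threshold, 4 groups, a term for lines 376 to 378 and leaving out each line. A fit against shCtrl lines 382 and 383 only and other eraser lists for the acetylation balance were chosen after seeing the data. Each comparison was also tested on simulated data in which 200 genes, none of low mean count, changed. The shares recovered hold for that setting and need not hold for the data.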

Additional observations from a re-analysis of the deposited data

Results flagged for a closer look

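In 5 of the 25 named enzyme genes, 1 of the 5 shCtrl metastatic lines stood far from the other 4, by a gap of more than 0.71 of the group's range. For independent, normally distributed values such a gap comes in about 1 in 20 groups. The 25 genes were chosen in part on these same values and share the same lines. That rate is therefore no measure for them, and the share over all genes was not taken. Ezh1 was at 19.2 CPM in line 383, against 15.2 to 16.0 CPM in the others (gap 0.797 of the range), the side on which the shTrp53 lines lie. Hdac6 was at 3.70 CPM in line 383, against 6.40 to 7.49 CPM (gap 0.711). Line 376 was apart in 3 genes: Prmt2 at 31.1 CPM against 42.4 to 46.7 CPM (gap 0.723), Sirt2 at 54.5 CPM against 69.7 to 72.8 CPM (gap 0.831) and Sirt7 at 84.9 CPM against 73.2 to 76.2 CPM (gap 0.746). The causes were not tested.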

How the results depend on the processing

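Counts of called enzyme genes depended on the fit. In the knockdown comparison (4 higher, 7 lower), the count higher was 0 with the term for line numbers 376 to 378, 0 against a 1.5-fold change and 0 against shCtrl lines 382 and 383 only. The count lower was 3, 0 and 0 in these fits and 12 with limma voom. Leaving out 1 line gave 0 to 7 higher (0 without 384, 1 without 377 or 386, 2 without 378, 7 without 383) and 2 to 9 lower (2 without 384, 3 without 377, 378 or 386, 4 without 387). The writers' median of -0.26 was -0.128 with the line term, -0.127 against lines 382 and 383 only, and -0.263 to -0.177 when 1 line was left out. Tet2, not called, turned from 0.13 to -0.101 with the line term and to -0.101 against lines 382 and 383, and ranged from -0.038 (without 386) to 0.211 when 1 line was left out. The fit with the line term and the fit against lines 382 and 383 both take the difference from lines 382 and 383. Tet2 stood at 38.0 and 35.4 CPM there, against 22.6 to 30.9 CPM in lines 376 to 378. Why these shCtrl lines differ was not tested. Between sites (3 higher, 4 lower), the counts were 7 and 8 with the DESeq2 test, 1 and 0 with limma voom and, for the lower count, 7 with 4 groups. Leaving out 1 line gave 0 to 7 higher and 0 to 11 lower (0 and 0 without the shTrp53 primary line, 7 and 11 without 376, and lower counts of 2 without 377 or 382 and 1 without 384 or 387). The writers' median of -0.20 was -0.259 with limma voom and -0.302 to -0.138 when 1 line was left out. Kdm5a, not called, ranged from -0.043 (without the shTrp53 primary line) to 0.556 (without the shCtrl primary line). The difference in acetylation balance of 0.44 became 0.005 with the sirtuins added to the erasers and -0.065 with all zinc-dependent deacetylases and sirtuins, lists chosen after seeing the data. Other scalings and filters and the fit without robust dispersion kept these counts within 1.5 times. Over all genes, the 2634 called in the knockdown comparison became 965 with the line term, 330 against a 1.5-fold change, 614 against lines 382 and 383 only, 1154 without 384, 1172 without 386, 1522 without 377 and 1690 without 378. The 1864 called between sites became 2816 with DESeq2, 739 with limma voom, 121 without the shTrp53 primary line and 1036 without 387. For the interaction DESeq2 called 52 genes where edgeR called 0. No paired analysis was possible because the groups share no line numbers and each primary group has 1 line. Depth limits Hdac11, Dnmt3b, Dnmt3l and Kdm4d most, the genes with the fewest counts among those discussed.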
